A study of Mus musculus with 28 samples.

Results

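The 10 genes described here build the chromosome axis and the synaptonemal complex of meiosis: Sycp1, Sycp2, Sycp3, Syce1, Syce2, Tex12, Hormad1, Smc1b, Rec8 and Stag3. They were taken by their symbols, and each had exactly 1 probe set, so 10 of 45037 non-control probe sets and 10 of 18193 named genes. RNA from adult male C57BL/6 mice was hybridised to 28 one-colour arrays in 10 groups. Wild-type (WT) mice were set against GRTH null mice (KO), which lack Ddx25, the gene of the testicular RNA helicase GRTH. The groups were spermatocytes (4 WT and 4 KO arrays), round spermatids (3 and 3), Leydig cells (2 and 2), total testicular polysome RNA (3 and 3), and WT polysome RNA precipitated with GRTH antibody (2) or with control IgG (2). The sources used here say neither which exons the null allele lacks nor whether animals were pooled. The labels do not tie replicates to separate animals. Every p-value here therefore measures only how these samples vary, and that variation may be technical.

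In the first meiotic prophase each chromosome folds along a protein axis, and paired homologous axes are then zipped together by the synaptonemal complex. Meiotic cohesin holds sister chromatids and forms the base of the axis: Smc1b is its core ATPase subunit, Rec8 its cleavable clasp subunit and Stag3 its accessory subunit. Sycp2 and Sycp3 are the axial (lateral) elements, and Hormad1 coats axes that have not yet paired. Sycp1 is the transverse filament that spans the gap between the axes. Syce1, Syce2 and Tex12 belong to the central element, where Syce2 and Tex12 bind each other and extend synapsis along the chromosome. The structure is assembled and taken apart in spermatocytes, and round spermatids are the haploid cells that follow the meiotic divisions.

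All 10 probe sets were bright. The lowest group mean among them was 339 signal units (Tex12, WT round spermatids) on arrays scaled to a trimmed mean of 500, and in each group the dimmest of the 10 lay at or above percentile 77.0 of all probe sets. The Ddx25 probe set fell in KO in each fraction, by 2.26 ± 0.08 (SE) on the log2 scale in spermatocytes, by 1.97 ± 0.11 in round spermatids, by 1.99 ± 0.03 in Leydig cells and by 4.35 ± 0.28 in polysome RNA (adjusted p = 1.92e-06, 0.000161, 0.000445 and 0.00143, limma). Its mean KO signal was still 3079 in spermatocytes, 4234 in round spermatids and 3524 in Leydig cells, against 822 in polysome RNA. The source of this remaining signal was not tested. Some replicates of the germ cell fractions were near-identical pairs (arrays 1 and 2, and among spermatocytes also 3 and 4). Between WT spermatocyte arrays the log2 differences had an SD of 0.207 within either pair and of 0.287 to 0.306 across pairs. Polysome arrays 1 and 2 of both genotypes had been deposited unscaled, and polysome arrays of 1 group differed by an SD of 0.494 to 0.804. The 4 precipitation arrays, which had an additional labelling step, differed by an SD of 1.25 and 1.30 within their groups and had actin 3' to 5' ratios of 3.81 to 12.8, against 1.41 to 2.09 on the other 24 arrays. For 4 arrays (IgG 1, WT polysome 1 and 2, KO polysome 1) the title and the free description disagree on the group, and the title was followed.

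The cell fractions were enriched rather than pure. The summed signal of 9 spermatocyte markers (such as Spo11 and Dmc1) had a median of 37831 in WT spermatocytes, 22324 in WT round spermatids and 29700 in WT Leydig cells. The summed signal of 8 round spermatid markers (such as Acrv1) was 117673 in WT round spermatids, 31648 in WT spermatocytes and 56684 in WT Leydig cells. Germ cell marker RNA was therefore present in the Leydig fraction, and values of the 10 genes there are values of that mixture. In all these bulk samples, fewer cells of a type and less RNA per cell cannot be told apart.

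**Figure D1:**
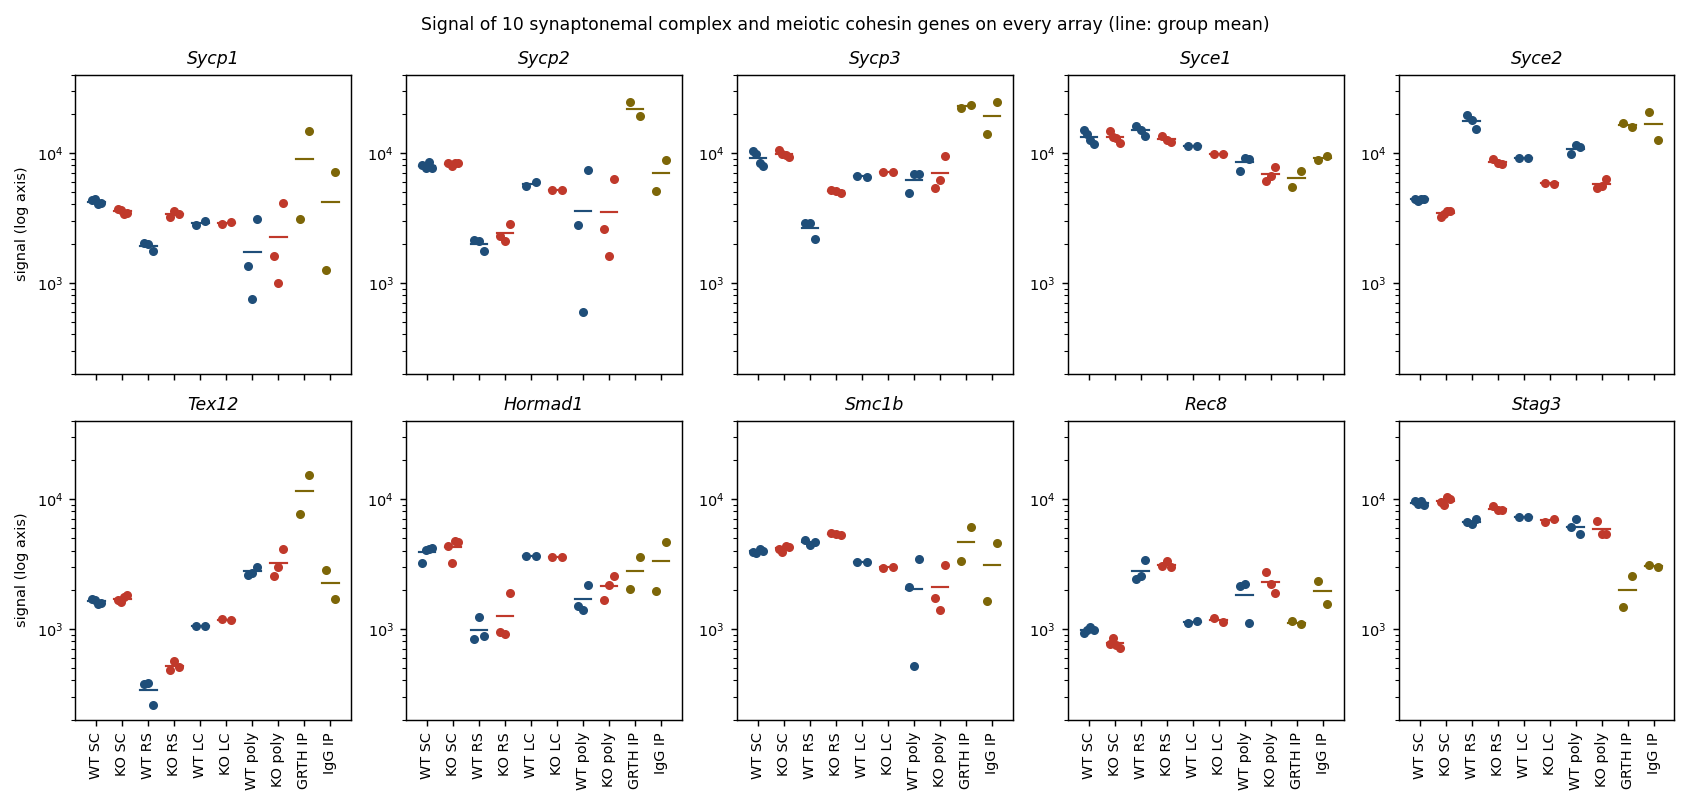
Signal of each of the 10 genes on every array (log axis, scaled units), by group, with the group mean as a line; SC, spermatocytes; RS, round spermatids; LC, Leydig cells; poly, total polysome RNA. Syce2 and Rec8 sit higher in round spermatids than in spermatocytes, while Sycp2, Sycp3, Tex12 and Hormad1 sit lower in both genotypes.

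From WT spermatocytes to WT round spermatids the RNA of 9 of the 10 genes changed, 6 falling and 3 rising, against 78.3% of all probe sets called (33.4% higher and 44.9% lower), so the count itself is near the background. Among the axial elements, Sycp3 read 10369, 9869, 8365 and 7963 on the WT spermatocyte arrays and 2857, 2874 and 2151 on the round spermatid arrays. Sycp2 read 8038, 7579, 8455 and 7648 in spermatocytes and 2143, 2098 and 1764 in round spermatids. For both genes every spermatocyte array stood above every round spermatid array. Sycp3 fell by 1.80 ± 0.14 (SE) and Sycp2 by 1.98 ± 0.09 on the log2(signal + 16) scale (adjusted p = 9.43e-06 and 4.88e-07, limma), which is 3.47-fold and 3.95-fold. Hormad1 fell by 1.98 ± 0.15 (adjusted p = 8.98e-06), from 3868 ± 439 (SD, n = 4) to 980 ± 212 (SD, n = 3). The transverse filament gene Sycp1 fell less, by 1.12 ± 0.08 (adjusted p = 4.61e-06), from 4344, 4411, 4007 and 4099 to 2038, 1978 and 1763.

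The central element genes did not move together. Tex12 read 1705, 1677, 1539 and 1588 in WT spermatocytes and 379, 381 and 257 in WT round spermatids. Syce2, which encodes the partner of the Tex12 protein, read 4440, 4245, 4420 and 4412 in spermatocytes and 19606, 17916 and 15306 in round spermatids. One partner's RNA was thus lowest where the other's was highest, with no overlap of the arrays in either gene. Tex12 fell by 2.23 ± 0.14 (4.69-fold, adjusted p = 2.45e-06) and Syce2 rose by 2.00 ± 0.09 (3.99-fold, adjusted p = 5.3e-07, limma). Syce1, the third central element gene, differed by 0.16 ± 0.11 (adjusted p = 0.196), but under quantile normalization it was lower in round spermatids, with a log2 difference of -0.42 (adjusted p = 0.000228).

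The 3 cohesin genes also went different ways. Rec8 read 933, 971, 1035 and 980 in WT spermatocytes and 2399, 2550 and 3404 in round spermatids, a rise of 1.48 ± 0.12 (adjusted p = 1.38e-05). Stag3 fell by 0.49 ± 0.07 (adjusted p = 0.000262), from 9338 ± 352 (SD, n = 4) to 6656 ± 296 (SD, n = 3). Smc1b rose by 0.23 ± 0.06 (adjusted p = 0.0126), and this call was lost under quantile normalization (0.08, adjusted p = 0.151) and with arrays centred on their median (0.05, adjusted p = 0.595). The median difference was -0.81 over the 10 genes and -0.16 over all probe sets tested.

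**Figure D2:**
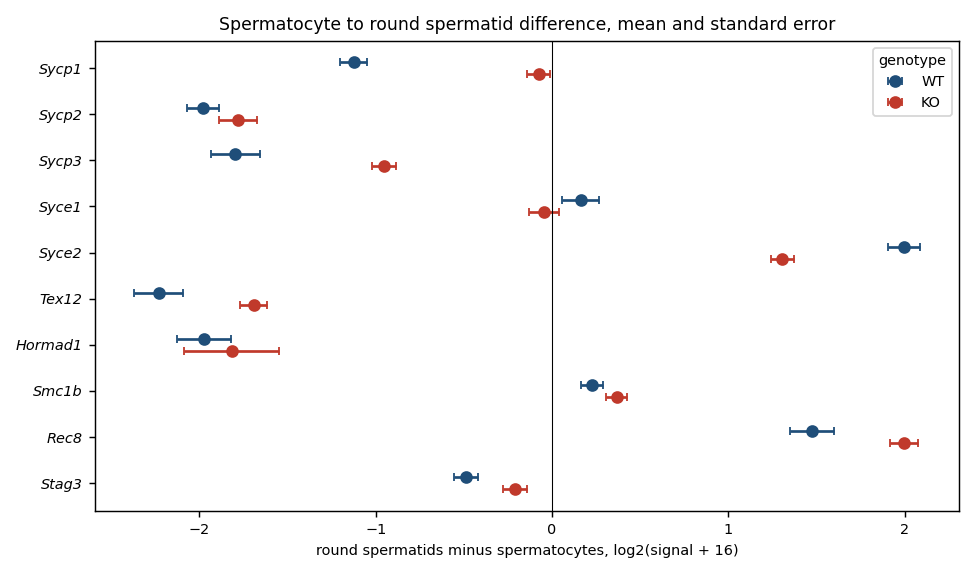
Log2 difference of round spermatids minus spermatocytes for each gene, with its standard error, in WT (4 and 3 arrays) and KO (4 and 3 arrays). Syce2 and Rec8 lie to the right of 0 in both genotypes, and Sycp1 lies near -1.12 in WT and near -0.07 in KO.

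The 250 bases before the RefSeq start sites (GRCm38.p6) of these genes were searched on both strands for 4 short motifs. These were the E-box CACGTG, a form of the E2F site TTCCCGC, which reads GCGGGAA on the other strand, the MYB core CNGTT and the short CRE motif TGACG. All 10 genes matched a promoter in the table. The E-box stood in 6 of the 10 genes (Sycp1, Sycp3, Syce2, Tex12, Hormad1 and Stag3), against 6.86% of all 27025 genes in the table, a gene being counted where any of its start sites has the motif. The E2F form stood in 5 (Sycp3, Syce2, Tex12, Hormad1 and Smc1b), against 4.38%. The MYB core stood in 10 of 10 against 76.8%, and the CRE motif in 2 of 10 (Syce1 and Syce2) against 19.8%. The 3 promoters below are shown whole as examples with both the E-box and the E2F form (Sycp3 and Tex12) and with neither (Rec8). These motifs did not sort the genes by direction from spermatocytes to round spermatids: Sycp3 and Tex12 hold both and fell while Syce2 holds both and rose, and Rec8 holds neither and rose while Sycp2 holds neither and fell. Capitals mark the E-box and the E2F form.
Sycp3, chr10:88459337-88459586, plus strand: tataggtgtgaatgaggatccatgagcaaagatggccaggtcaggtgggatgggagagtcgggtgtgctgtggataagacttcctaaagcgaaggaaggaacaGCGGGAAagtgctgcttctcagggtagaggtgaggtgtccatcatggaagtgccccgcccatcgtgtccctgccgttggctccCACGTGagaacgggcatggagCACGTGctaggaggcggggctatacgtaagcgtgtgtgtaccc
Tex12, chr9:50561269-50561518, minus strand: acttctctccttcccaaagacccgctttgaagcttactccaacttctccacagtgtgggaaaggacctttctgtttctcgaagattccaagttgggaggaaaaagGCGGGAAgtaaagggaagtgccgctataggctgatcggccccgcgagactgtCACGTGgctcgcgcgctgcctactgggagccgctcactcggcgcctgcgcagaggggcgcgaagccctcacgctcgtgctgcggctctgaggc
Rec8, chr14:55617916-55618165, plus strand: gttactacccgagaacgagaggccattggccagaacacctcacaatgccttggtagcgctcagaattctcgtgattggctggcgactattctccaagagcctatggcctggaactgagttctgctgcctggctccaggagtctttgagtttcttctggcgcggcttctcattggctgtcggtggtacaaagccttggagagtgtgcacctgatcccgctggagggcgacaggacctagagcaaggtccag

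The E-boxes of the other genes are shown as 30-base windows with the E-box in capitals, so that their flanking bases can be compared.
Sycp1, chr3:102936177-102936206, minus strand: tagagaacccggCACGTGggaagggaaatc
Hormad1 upstream copy, chr3:95559608-95559637, plus strand: caaagggtgcgcCACGTGccagtgacagtt
Hormad1 downstream copy, chr3:95559645-95559674, plus strand: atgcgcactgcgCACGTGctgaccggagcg
Stag3, chr5:138280327-138280356, plus strand: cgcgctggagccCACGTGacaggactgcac
Syce2, chr8:84872158-84872187, plus strand: cgtttcattcagCACGTGctcggggcgggg

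In Sycp3 the E-boxes began 64 and 43 bases before the start site, in Hormad1 57 and 20 bases before the first of 2 annotated start sites (59 and 22 before the other), in Sycp1 94, in Tex12 93 and in Stag3 170. The Syce2 match lay 88 bases before the downstream of 2 annotated start sites. A match of letters is a description and was not tested for binding.

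In KO mice the same step between fractions changed 8 of the 10 genes, 3 rising and 5 falling, against 75.6% of all probe sets (34.4% higher and 41.2% lower). Rec8 rose by 2.00 ± 0.08, Syce2 by 1.31 ± 0.07 (2.47-fold) and Smc1b by 0.37 ± 0.06 (adjusted p = 3.52e-07, 1.06e-06 and 0.000843, limma). The call of Smc1b was lost with arrays centred on their median (0.24, adjusted p = 0.0777). Hormad1 fell by 1.82 ± 0.27, Sycp2 by 1.78 ± 0.11, Tex12 by 1.69 ± 0.08 and Sycp3 by 0.95 ± 0.07 (adjusted p = 0.000475, 2.56e-06, 6.7e-07 and 6.11e-06). Stag3 fell by 0.21 ± 0.07 (adjusted p = 0.023), a call lost with the replicate number as a block (adjusted p = 0.0693) and without KO spermatocyte array 3 or 4 or KO round spermatid array 2 or 3 (0.0563 to 0.0757). Sycp1 read 3681, 3608, 3383 and 3465 in KO spermatocytes and 3181, 3538 and 3352 in KO round spermatids, so that its arrays overlapped (-0.07 ± 0.06, adjusted p = 0.324). Syce1 differed by -0.05 ± 0.08 (adjusted p = 0.638), and under quantile normalization by -0.26 (adjusted p = 0.000907).

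Whether the KO effect differed between round spermatids and spermatocytes was tested with an interaction term. It did for 6 of the 10 genes, against 31.4% of all probe sets (22% higher and 9.43% lower). The difference was 1.05 ± 0.10 for Sycp1, 0.84 ± 0.16 for Sycp3, 0.54 ± 0.16 for Tex12, 0.52 ± 0.15 for Rec8 and 0.28 ± 0.09 for Stag3, all higher in round spermatids (adjusted p = 2.04e-05, 0.00193, 0.0245, 0.019 and 0.0284, limma). For Syce2 it was -0.69 ± 0.11 (adjusted p = 0.000594), the only one of the 6 that was lower. The median was 0.24 over the 10 genes and 0.11 over all probe sets. Counting each pair of near-identical arrays once left 1 call (Sycp1) of the 6, with adjusted p = 0.0849 for Syce2 and 0.0834 for Sycp3. In the joint fit of 24 arrays 4 of the 6 lost their calls, Sycp1, Rec8, Tex12 and Stag3 (adjusted p = 0.201, 0.207, 0.0828 and 0.219). Without WT round spermatid array 1 the adjusted p of Rec8 was 0.0501, and without KO round spermatid array 2 that of Tex12 was 0.0637. Stag3 lost its call without WT spermatocyte array 1 or 3, KO spermatocyte array 2, WT round spermatid array 1 or 2, or KO round spermatid array 1 (adjusted p = 0.052 to 0.071). The call of Tex12 was lost under quantile normalization (0.27, adjusted p = 0.214) and that of Stag3 with median centring (0.33, adjusted p = 0.101).

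In spermatocytes, the cells that build the complex, KO and WT were close. No gene of the 10 rose and 3 fell (Syce2, Rec8 and Sycp1), against 24.3% of all probe sets called (12.8% higher and 11.4% lower). Syce2 read 3217, 3360, 3560 and 3555 in KO against 4440, 4245, 4420 and 4412 in WT. Rec8 read 761, 856, 748 and 716 in KO against 933, 971, 1035 and 980 in WT. In both genes all 4 KO arrays lay below all 4 WT arrays. The falls were 0.36 ± 0.05 for Syce2 (1.28-fold), 0.34 ± 0.07 for Rec8 and 0.25 ± 0.05 for Sycp1 (adjusted p = 0.00188, 0.00716 and 0.0117, limma). All 3 calls were lost when near-identical arrays were averaged, which leaves 2 values a genotype (adjusted p = 0.154 for Syce2, 0.178 for Rec8 and 0.268 for Sycp1). In the joint fit of 24 arrays Rec8 and Sycp1 were not called (adjusted p = 0.287 and 0.786). Within arrays 1 and 2 and within arrays 3 and 4 the Syce2 difference was -0.40 and -0.31.

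The other 7 genes differed by -0.02 to 0.13 in spermatocytes with overlapping arrays, the central and axial genes Syce1 (-0.02 ± 0.09), Sycp2 (0.06 ± 0.05) and Sycp3 (0.11 ± 0.09) among them (adjusted p = 0.926, 0.491 and 0.436). The median was 0.05 over the 10 genes and 0.04 over all probe sets. Spermatocyte markers had 1 higher and 1 lower of 9, while 7 of 8 round spermatid markers and 8 of 8 elongating spermatid markers (such as Prm1) were lower in the KO fraction. The summed round spermatid marker signal was 31264 to 32085 in WT and 22167 to 24010 in KO spermatocytes, and that of 8 elongating spermatid markers 105065 to 131316 and 62428 to 69739. Of 6 Leydig cell markers 5 were higher (median 0.43), with sums of 6475 to 7067 in WT and 8748 to 9715 in KO. The part of these shifts in the falls of Syce2, Rec8 and Sycp1 was not tested.

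**Figure D3:**
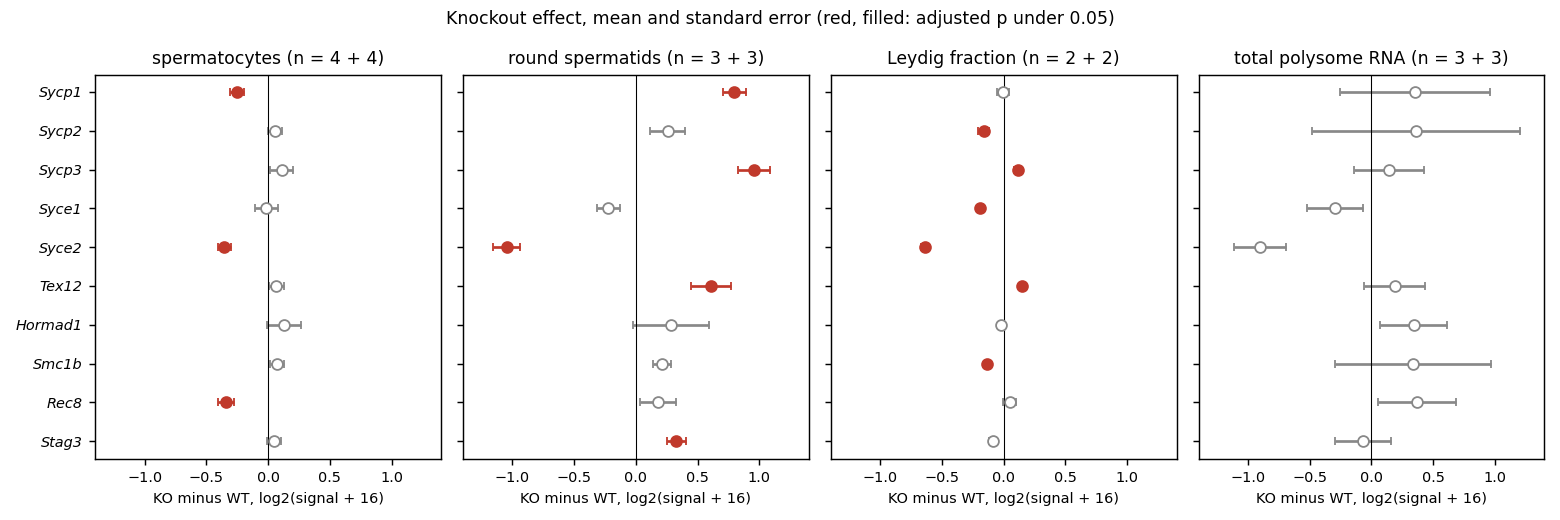
Log2 difference of KO minus WT for each gene, with its standard error, in spermatocytes (4 and 4 arrays), round spermatids (3 and 3), Leydig cells (2 and 2) and total polysome RNA (3 and 3). Syce2 lies left of 0 in all 4, between -0.36 and -1.04, while Sycp1 and Sycp3 lie right of 0 in round spermatids, at 0.80 and 0.95.

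In round spermatids more of the 10 genes were called between KO and WT, in both directions. Of the 10 genes 4 rose (Sycp3, Sycp1, Tex12 and Stag3) and 1 fell (Syce2), against 43.9% of all probe sets called (28.9% higher and 14.9% lower). The count itself is near the background, which was also larger here than the 24.3% called in spermatocytes. Syce2 read 8875, 8353 and 8236 in KO against 19606, 17916 and 15306 in WT. Sycp3 read 5196, 5101 and 4887 in KO against 2857, 2874 and 2151 in WT. Sycp1 read 3181, 3538 and 3352 in KO against 2038, 1978 and 1763 in WT. The lowest WT array of Syce2 stood above its highest KO array, and the reverse held for Sycp3 and Sycp1. The genotypes were separated in 7 of the 10 genes, also in Tex12, Stag3, Smc1b and Syce1. How many of all probe sets separated in this way was not counted, and the separation is given only as a description. Syce2 fell by 1.04 ± 0.11 (2.06-fold), Sycp3 rose by 0.95 ± 0.13 (1.94-fold) and Sycp1 by 0.80 ± 0.09 (1.74-fold), with adjusted p = 0.000912, 0.00209 and 0.00119 (limma). In a joint fit of all 24 arrays labelled in a single step, Sycp1 lost its call (adjusted p = 0.125). Within arrays 1 and 2 and within array 3, Syce2 differed by -1.12 and -0.89 and Sycp3 by 0.84 and 1.18.

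Tex12 read 483, 561 and 507 in KO against 379, 381 and 257 in WT, a rise of 0.61 ± 0.16 (adjusted p = 0.0247). Stag3 read 8734, 8152 and 8198 against 6653, 6361 and 6953, a rise of 0.33 ± 0.08 (adjusted p = 0.016). In both genes the KO arrays lay above the WT arrays. Both calls were lost with near-identical arrays averaged (adjusted p = 0.0728 and 0.13) and without KO array 1 (adjusted p = 0.0504 and 0.0591), and that of Tex12 under quantile normalization (0.36, adjusted p = 0.12). Tex12 was also not called without KO array 2 or 3 (adjusted p = 0.0802 and 0.0587), nor Stag3 without WT array 2 (adjusted p = 0.061).

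Smc1b (0.21 ± 0.07), Sycp2 (0.26 ± 0.14), Hormad1 (0.28 ± 0.31), Rec8 (0.18 ± 0.14) and Syce1 (-0.22 ± 0.10) did not pass in round spermatids (adjusted p = 0.0555, 0.188, 0.487, 0.349 and 0.103). Smc1b passed under quantile normalization (0.27, adjusted p = 0.0119). Without WT array 3, Rec8 (0.33, adjusted p = 0.0241) and Syce1 (-0.29, adjusted p = 0.0372) passed, and with array weights Rec8 (0.32), Syce1 (-0.25) and Smc1b (0.24) passed (adjusted p = 0.024, 0.02 and 0.0137). The direction of Syce1 turned under quantile normalization (0.11, adjusted p = 0.145). Hormad1 read 944, 915 and 1899 in KO against 832, 1223 and 887 in WT, so KO array 3 stood alone. Its difference was -0.12 within arrays 1 and 2 and 1.09 within array 3. The median was 0.27 over the 10 genes and 0.13 over all probe sets.

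Cell type markers moved in the same fraction. Of 9 spermatocyte markers 6 were higher and 1 lower in KO round spermatids (median 0.74), and their sum was 26013 to 28406 in KO and 22136 to 22611 in WT. Of 8 round spermatid markers 0 were higher and 7 lower (median -0.46), with sums of 76682 to 82846 in KO and 110029 to 129119 in WT. None of the spermatocyte or round spermatid markers had a group mean under 100. Spermatogonia markers were higher in 5 of 8 (sums of 6101 to 6528 in KO and 3878 to 4275 in WT) and Leydig cell markers in 3 of 6 (1321 to 1528 and 978 to 1015). Elongating spermatid markers were lower in 6 of 8 (164370 to 209859 and 240702 to 331643) and Sertoli cell markers in 4 of 6 tested (1191 to 1239 and 2154 to 2423). Macrophage markers were lower in 1 of 5 (9080 to 10045 and 16047 to 21222). Peritubular and smooth muscle markers were lower in 1 of 2 tested (5837 to 5851 and 11354 to 13082), with 0 higher in either list. The part of these shifts in the rise of Sycp1 and Sycp3 and in the fall of Syce2 was not tested.

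In the Leydig fraction 2 of the 10 genes rose and 4 fell, against 64.2% of all probe sets called (38.9% higher and 25.3% lower). Centring arrays on their median turned the balance over all probe sets from 8767 higher and 5688 lower to 5950 and 9496, and quantile normalization gave 6612 and 7846. Among the 10 genes, median centring called 0 higher and 7 lower (Sycp1, Syce1, Syce2, Sycp2, Smc1b, Hormad1 and Stag3), and quantile normalization 1 higher (Sycp3) and 2 lower (Syce1 and Syce2). Syce2 read 5870 and 5766 in KO against 9089 and 9066 in WT, a fall of 0.64 ± 0.03 (1.56-fold, adjusted p = 0.000737, limma). Syce1 fell by 0.19 ± 0.03, Sycp2 by 0.16 ± 0.05 and Smc1b by 0.13 ± 0.03 (adjusted p = 0.00736, 0.0467 and 0.02). Tex12 rose by 0.15 ± 0.03 and Sycp3 by 0.11 ± 0.03 (adjusted p = 0.0148 and 0.0303), but under median centring they read -0.02 and -0.06. Under quantile normalization the uncalled differences of Stag3, Hormad1 and Sycp1 turned from -0.08, -0.02 and -0.01 to 0.10, 0.07 and 0.04, and that of Rec8 from 0.05 to -0.03. Without WT array 1 or 2, or KO array 1 or 2, the count of 6 became 3, 2, 1 and 1. The 2 arrays of each genotype differed by an SD of only 0.166 and 0.145 (log2), so these small steps rest on near-identical arrays. Of the markers here, 8 of 8 for round spermatids, 8 of 8 for elongating spermatids and 4 of 9 for spermatocytes were lower in KO, with 0 higher in each list. For Leydig cells (such as Cyp17a1) 6 of 6 were higher, and for macrophages 4 of 5 were higher and 1 lower. The part of these marker shifts in the differences of the 10 genes was not tested.

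In total polysome RNA, which samples transcripts bound to ribosomes, 0 of the 10 genes passed the threshold, against 2.4% of all probe sets (0.169% higher and 2.23% lower), and 1 had an unadjusted p under 0.05. That gene was Syce2, which read 5398, 5577 and 6293 in KO against 9826, 11398 and 11051 in WT. All 3 KO arrays lay below all 3 WT arrays, and no other gene of the 10 was separated in this way. How many of all probe sets separated so was not counted, and the separation is given only as a description. The difference was -0.90 ± 0.21 (1.87-fold, adjusted p = 0.0784, limma). Same-numbered polysome arrays deviated together, and with the replicate number as a block the adjusted p was 0.024, at which Syce2 is called lower. Testing 1 probe set per gene gave 0.0234, and leaving out any 1 of the 6 arrays gave 0.112 to 0.267. Over 19 alternatives it ran from 9.39e-07, in the joint fit of 24 arrays, to 1, with the deposited values not rescaled.

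The other 9 genes varied widely among polysome arrays. Sycp1 read 1345, 751 and 3082 in WT and 1592, 996 and 4130 in KO. Sycp2 read 2774, 594 and 7406 in WT and 2590, 1595 and 6314 in KO. In both genes array 3 of each genotype was the highest and array 2 the lowest, and the genotypes overlapped. Their KO differences were 0.35 ± 0.61 and 0.36 ± 0.84 (adjusted p = 0.827 and 0.88). Sycp3 differed by 0.14 ± 0.28, Tex12 by 0.19 ± 0.25 and Syce1 by -0.30 ± 0.23 (adjusted p = 0.854, 0.768 and 0.577). The median was 0.26 over the 10 genes and 0.16 over all probe sets. With randomly chosen probe sets changed, a simulated test at this size recovered 55.3% of 4-fold changes and 1.12% of 2-fold changes. These rates are averages over probe sets of differing spread and were not worked out for the 10 genes. Differences of the size seen in round spermatids could therefore easily be missed here. Of 8 elongating spermatid markers 7 were lower and of 8 round spermatid markers 2 were lower in KO polysome RNA, and their part in the Syce2 value was not tested.

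The KO difference of Syce2 was larger in polysome RNA than in spermatocytes by -0.55 ± 0.15, with adjusted p = 0.0642 for the interaction and 0.027 with the replicate block. Without WT polysome array 1 it was -0.61 (adjusted p = 0.0461) and without KO polysome array 3 -0.61 (adjusted p = 0.0413). None of the 10 genes passed that interaction in the main fit, against 3.68% of all probe sets (1.09% higher and 2.59% lower), and 2 had an unadjusted p under 0.05 (Syce2 and Rec8, 0.71 ± 0.29, adjusted p = 0.236). With the replicate block Sycp1 was also called, higher in polysome RNA (0.61, adjusted p = 0.0156), and each KO array of Sycp1 stood above the same-numbered WT array there. Leaving out the arrays of conflicting description keeps 1 WT polysome array, array 3, so only sizes are given. That difference was then -0.34 for Sycp1 and 1.22 for Rec8. Rec8 read 1103.5 on WT polysome array 3, against 2120 and 2226 on the WT arrays left out. With polysome arrays 1 and 2 against 3 as a block, Rec8 was called (adjusted p = 0.0335, limma), an alternative chosen after seeing the data.

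Precipitation with GRTH antibody asks which polysomal transcripts are bound by the helicase. No gene of the 10 passed between GRTH antibody and IgG, against 0% of all probe sets, and 2 of the 10 had an unadjusted p under 0.05, as did 513 of all 22519 probe sets. Tex12 read 7597 and 15204 with GRTH antibody and 2850 and 1687 with IgG. Sycp2 read 24441 and 19089 against 5045 and 8839. The differences were 2.28 ± 0.74 and 1.69 ± 0.70 (adjusted p = 0.999 each, limma). In 5 of the 10 genes the arrays of the groups did not overlap. Tex12 and Sycp2 were higher with GRTH antibody, and Rec8, Stag3 and Syce1 were lower. How many of all probe sets separated in this way was not counted. With 2 arrays a group such separation arises easily without any effect, so it is given only as a description. Syce2 read 17084 and 15813 against 20670 and 12555, with overlapping arrays and a difference of 0.03 ± 0.69 (adjusted p = 0.999). Sycp1 differed by 1.17 ± 1.07 and Sycp3 by 0.30 ± 0.70, both with overlapping arrays. In order of replicate number, Sycp1 read 3085 and 14797 with GRTH antibody against 1259 and 7082 with IgG. In the same order Sycp3 read 22278 and 23507 against 13848 and 24768. With 2 arrays a group and this spread, 0% of simulated 4-fold changes were recovered, so the test could not have called such differences. A fit of all 28 arrays together called 4 of the 10, Tex12 higher (adjusted p = 1.92e-05) and Stag3, Rec8 and Syce1 lower (adjusted p = 0.02, 0.0399 and 0.0446). That fit shares its variance with the cell fraction arrays, which spread far less, so it understates the spread between precipitates. It called 4924 of all 22519 probe sets (2562 higher and 2362 lower), and no binding is read from its calls.

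The contrast between Syce2 and the Sycp genes was followed on each array as the log2 ratio of Syce2 to Sycp1, Sycp2 or Sycp3. Each ratio rests on 1 probe set per gene, so its absolute level is not read, only its shift between groups. All of them share the Syce2 signal, so a shift of Syce2 alone enters each ratio. In WT, from spermatocytes to round spermatids, the ratio rose by 3.13 against Sycp1, 3.99 against Sycp2 and 3.80 against Sycp3. In KO the same step was 1.39, 3.10 and 2.27. No spermatocyte array overlapped a round spermatid array in any of these 6 steps. KO minus WT in round spermatids was -1.85, -1.30 and -2.00, and in Leydig cells -0.64, -0.48 and -0.75, again with no overlap. In spermatocytes it was -0.41 against Sycp2 and -0.47 against Sycp3 with no overlap, and -0.10 against Sycp1 with overlap. In polysome RNA it was -1.26, -1.27 and -1.05, and only the ratio to Sycp3 separated the genotypes. Between GRTH antibody and IgG it was -1.15, -1.66 and -0.28, and only the ratio to Sycp2 separated the groups. By itself, Syce2 differed by -0.64 in KO Leydig cells, against -0.01 for Sycp1, -0.16 for Sycp2 and 0.11 for Sycp3. The pairs of Syce2 with the Sycp genes were chosen with earlier results known, so the shifts are given with no test. How often the ratios of other gene pairs separate the groups was not counted.

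**Figure D4:**
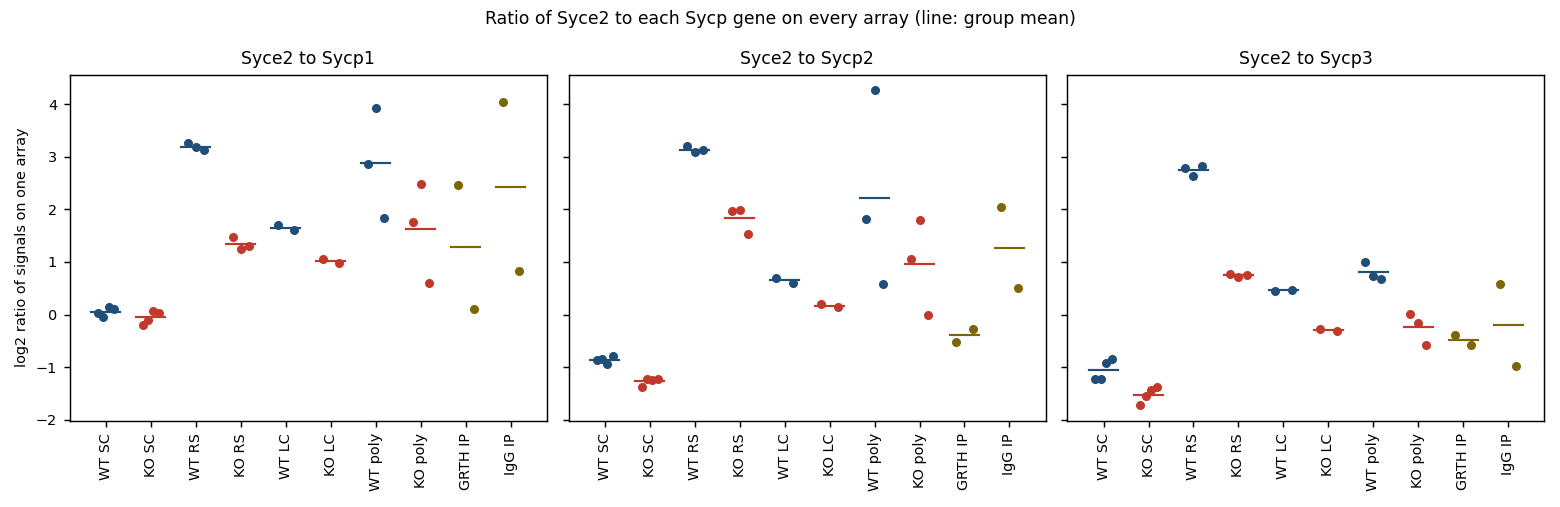
Log2 ratio of the Syce2 signal to the Sycp1, Sycp2 or Sycp3 signal on each array, by group, with the group mean as a line. WT round spermatid arrays stand highest among the cell fractions in each panel, and KO round spermatid arrays lie 1.30 to 2.00 below them.

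By probe set, opposite calls of Syce2 and a Sycp gene in KO were made in round spermatids (against Sycp1 and Sycp3) and in the Leydig fraction (against Sycp3, whose direction turned with the scaling). In spermatocytes Syce2 and Sycp1 fell together in KO. In the Leydig fraction Syce2 and Sycp2 were both called lower, and the Sycp2 call (-0.16) was lost under quantile normalization (-0.04). In polysome RNA the Sycp genes did not pass in either direction. Over the 10 group means the Pearson correlation of Syce2 was -0.06 with Sycp1, -0.06 with Sycp2 and 0.06 with Sycp3, as a description over groups that share arrays' scaling. It was 0.50 with Rec8, -0.53 with Hormad1 and -0.70 with Stag3. In RefSeq the body of Syce2 overlaps the neighbouring gene Gcdh. Gcdh differed by 0.04 ± 0.32 in KO polysome RNA (adjusted p = 0.971), rose in the Leydig fraction (0.75 ± 0.07, adjusted p = 0.00308, limma) where Syce2 fell, and lay under the signal filter in the germ cell fractions. RefSeq also overlaps Sycp3 with Chpt1, Tex12 with Il18, Smc1b with Fam118a, and Stag3 with Gal3st4 and Gpc2, and the share of such neighbours in a signal was not tested.

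Over all 10 groups, the mean of Syce2 was highest in WT round spermatids (17609 ± 2166, SD, n = 3), followed by IgG (16612 ± 5739, n = 2) and GRTH precipitates (16449 ± 898, n = 2), 3 groups that overlapped in that order. Under quantile normalization the order changed, with WT polysome RNA (12489) above IgG (12257) and GRTH precipitates (12127) and KO polysome RNA (7270) above KO Leydig cells (6382). Of the 100 levels, 42 moved there by more than the SD of their group. In the main scaling, next came WT polysome RNA (10758 ± 826, n = 3), WT Leydig cells (9078 ± 16.5, n = 2) and KO round spermatids (8488 ± 340, n = 3), each separated from the next. KO Leydig cells (5818 ± 73.4, n = 2) and KO polysome RNA (5756 ± 474, n = 3) overlapped, and WT spermatocytes (4379 ± 90.1, n = 4) stood above KO spermatocytes (3423 ± 166, n = 4). Sycp3 ran from 22892 ± 869 in GRTH precipitates (n = 2) to 2627 ± 413 in WT round spermatids (n = 3), with KO round spermatids at 5061 ± 158 (n = 3) overlapping WT polysome RNA and separated from WT round spermatids. Stag3 was highest in KO and WT spermatocytes (9671 ± 527 and 9338 ± 352, n = 4 each, overlapping) and lowest in the precipitates (3063 ± 69.5 with IgG and 1996 ± 756 with GRTH antibody, n = 2 each). Rec8 was highest in KO and WT round spermatids (3122 ± 163 and 2784 ± 542, n = 3 each, overlapping) and lowest in KO spermatocytes (770 ± 60.3, n = 4).

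Among other genes of the same machinery, 26 of 27 listed genes had a probe set. In KO spermatocytes 4 rose and 2 fell, against 12.8% and 11.4% of all probe sets. Stag1, an accessory subunit of mitotic cohesin, rose by 0.22 ± 0.05 and Meikin, a guardian of centromeric cohesion, by 0.21 ± 0.05 (adjusted p = 0.01 and 0.0113, limma). The cohesin acetyltransferase Esco1 fell by 0.26 ± 0.05 and the core subunit Smc3 by 0.38 ± 0.08 (adjusted p = 0.00429 and 0.0116). In KO round spermatids 14 rose and 1 fell of 25 tested, against 28.9% and 14.9% of all probe sets, with a median of 0.38 against 0.13. Separase (Espl1), which cleaves cohesin, rose by 0.98 ± 0.10, Esco2 by 0.69 ± 0.08, the release factor Wapl by 0.57 ± 0.08 and the mitotic clasp subunit Rad21 by 0.53 ± 0.07 (adjusted p = 0.000806, 0.00103, 0.0019 and 0.00204). The 1 that fell was Syce3, another central element gene (-0.37 ± 0.07, adjusted p = 0.00828), named here after its value was seen. In the Leydig fraction 8 rose and 4 fell of 25, against 38.9% and 25.3% of all probe sets. In polysome RNA and precipitates 0 of 26 passed, against 2.4% and 0% of all probe sets, with 0 and 2 at an unadjusted p under 0.05.

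The related genes moved in both directions between the fractions. From WT spermatocytes to round spermatids 6 of the 26 related genes rose and 17 fell, against 33.4% and 44.9% of all probe sets, so the count of 23 is near the background. Stag2 rose by 1.72 ± 0.08, while Majin, which tethers telomeres to the nuclear envelope, fell by 2.23 ± 0.06. Esco1 fell by 1.42 ± 0.06, and Sgo2a, a protector of centromeric cohesin, fell by 2.67 ± 0.12 (adjusted p = 6.21e-07 for Stag2, 8.51e-08 for Majin, 3.68e-07 for Esco1 and 4.11e-07 for Sgo2a, limma). In KO 10 rose and 13 fell, against 34.4% and 41.2%, with Rad21 rising by 2.01 ± 0.11 and Smc3 by 1.93 ± 0.07 (adjusted p = 1.31e-06 and 2.96e-07). The KO effect differed between the fractions for 13 of the 26, 12 of them higher in round spermatids, against 22% higher and 9.43% lower of all probe sets. These included Espl1 (0.96 ± 0.12, adjusted p = 0.000128, limma) and Hormad2, the paralog of Hormad1 (adjusted p = 0.000571). The Hormad2 signal in WT round spermatids was only 20.7 ± 11.4 (SD, n = 3), close to the added 16 and against 129 ± 30.6 in KO (n = 3), so the size of its difference depends on that offset and is not given.

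The genes most like each of the 10 were named by Pearson correlation of log2 group means over the 10 groups, among 8917 genes with a group mean of at least 500. For Syce2 these were Smim23 (0.99), Fam227a (0.98) and Spata48 (0.98). For Stag3 they were Zdhhc7, Katnal2 and Mpi (0.99 to 1.00), for Sycp3 Nol12, Arf6 and Ccz1 (0.98 each), and for Sycp1 Rasa1, Bclaf1 and Arhgap5 (0.95 to 0.96). For Tex12 they were Mob1b, Slc5a3 and Skil, for Hormad1 Alkbh7, Dync1i2 and Sdhaf1, and for Sycp2 Arid4b, Slc25a31 and Znhit6. For Rec8 they were Fn1, Gemin8 and Efcab12, for Syce1 Adam32, Mospd4 and Cops5, and for Smc1b Ccdc18, Scnm1 and AA467197. The 10 genes themselves were left out of the search, and the values of these last groups were 0.95 to 0.98.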

How the data were processed

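RNA of 28 mouse testis samples was measured on one-colour arrays. The authors deposited linear signal intensity values for 45101 probe sets, made with GCOS, Affymetrix's array software, per the submitters' processing notes; the sources used here give no version or settings. From the values, 24 arrays had a trimmed mean of 500 and 4 (WT and KO polysome 1 and 2) were unscaled, so every array was rescaled to a trimmed mean of 500 (leaving out a fraction of 0.02 at either end) and transformed to log2(signal + 16), which understates changes of dim genes. Probe sets were named by the platform's annotation: 34945 had 1 symbol, 932 several and 9160 none. The 64 control probe sets were dropped. The groups of each comparison were fitted alone, without a replicate block, with limma 3.58.1 (lmFit and eBayes), run in R 4.3.3. Tables were read with version 1.17.8 of data.table. The brighter part of the probe sets, 22519 with a mean log2 signal at least equal to the median probe set, was tested, with Benjamini-Hochberg adjustment and a threshold of 0.05. The fit was tested on simulated data. The small number of arrays limits the precision.

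The members, gene lists and comparisons were chosen with earlier results of these data known. Named are all 10 members, Ddx25, up to 4 related genes per comparison by smallest adjusted p (the text gives a part of these), and up to 3 genes most like each member. Same-numbered samples deviated together, by the correlation of their deviations from group means, in polysome RNA (0.35, 0.567 and 0.594) and in spermatocytes (0.147 to 0.19). The same held between KO round spermatids and KO spermatocytes (0.102 to 0.14) and between GRTH and IgG precipitates (0.387, the same value for both pairs of arrays). The labels give the numbers but no shared batch. In round spermatids (0.0566 to 0.112) and WT round spermatids with WT spermatocytes (0.0923 to 0.112) not every pair passed 0.1. Alternatives were other scalings, offsets, filters, 1 probe set per gene, the block, a joint fit, array weights, averaged near-identical arrays and left-out arrays. Figures used matplotlib 3.10.9, with Python 3.11.15, pandas 2.3.3 and numpy 2.4.6.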

Additional observations from a re-analysis of the deposited data

Results flagged for a closer look

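In WT spermatocytes, array 2 of Syce2 (4245 signal units) and array 1 of Hormad1 (3216) lay farther from the other 3 arrays of their group than a 95% limit for a single outlying value allows. Chance gives about 1 such group in 20, and 2 of 20 groups were beyond the limit here.

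The KO effect differed between round spermatids and spermatocytes, by the interaction test of limma, for Sycp1 (1.05), Sycp3 (0.84), Syce2 (-0.69), Tex12 (0.54), Rec8 (0.52) and Stag3 (0.28). The differences are in log2 units, round spermatids minus spermatocytes. These are 6 of the 10 genes, against 31.4% of all probe sets. With near-identical arrays averaged only Sycp1 kept its call, and in the joint fit only Sycp3 and Syce2 did.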

How the results depend on the processing

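Counts of the 10 genes past the threshold are given here for settings that moved them by more than 1.5 times. In polysome RNA 0 became 1, Syce2 lower in each case, with arrays centred on the median, an offset of 64, 1 probe set per gene, the replicate block, all 24 arrays labelled in a single step in one fit, or array weights. In spermatocytes 3 became 1 in the joint fit and 0 with near-identical arrays averaged. In round spermatids 5 became 3 without the filter on low signal, 8 with array weights and 3 with near-identical arrays averaged. Leaving out 1 array at a time gave 3 to 7, the 3 without KO array 1. In Leydig cells 6 became 3 under quantile normalization, 1 without the filter, 3 with the replicate block and 1 in the joint fit, and 1 to 3 with 1 array left out. In the precipitates 0 became 4 in a fit of all 28 arrays, which called 4924 of all 22519 probe sets. For the interaction of round spermatids and spermatocytes 6 became 3 without the filter, 2 in the joint fit and 1 with near-identical arrays averaged. For that of polysome RNA and spermatocytes 0 became 1 with an offset of 64, 1 probe set per gene, the joint fit, array weights or without both polysome arrays 3 (an alternative chosen after seeing the data). It became 2 with the replicate block or with polysome arrays 1 and 2 against 3 as a block (also chosen after seeing the data). With 1 array left out it was 0 to 1. Leaving out the arrays of conflicting description keeps 1 WT polysome array, so no count is given for it. The cause of these moves was not tested.

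Leaving out 1 array kept 9 calls from WT spermatocytes to round spermatids, 7 to 8 in KO, 3 in KO against WT spermatocytes, 4 to 6 for the interaction of round spermatids and spermatocytes, and 0 in polysome RNA and precipitates. The replicate block gave 3 calls in spermatocytes, 5 in round spermatids, 0 in the precipitates, 9 and 7 between fractions in WT and KO, and 7 for the interaction; the pairing holds only where processing names it. Of the 90 differences (10 genes in 9 comparisons), 11 turned direction under quantile normalization, 9 under median centring and 12 with the deposited values not rescaled. Those called on either side were Tex12 (-0.023) and Sycp3 (-0.062) in Leydig cells under median centring and Syce1 between WT fractions under quantile normalization (-0.42). In the joint fit the adjusted p of Sycp1 was 0.786 in spermatocytes, 0.125 in round spermatids and 0.201 for the interaction, and that of Rec8 in spermatocytes 0.287; without the filter that of Sycp1 in spermatocytes was 0.0583. The Syce2 difference kept its sign in KO against WT in every setting run in spermatocytes, round spermatids, Leydig cells and polysome RNA, between -0.33 and -0.41, -0.78 and -1.14, -0.63 and -0.81, and -0.78 and -1.30. Averaging near-identical arrays was not run in Leydig cells, where it leaves no residual degrees of freedom. Over all probe sets, centring on the median turned 2886 higher and 2577 lower in spermatocytes into 1324 and 2296. Quantile normalization turned 6518 and 3366 in round spermatids into 5003 and 4093, and 4951 and 2123 for the interaction of both fractions into 4126 and 2925.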
